A study of Mus musculus with 23 samples.

Results

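The 47 proteasome subunit genes were taken from the RefSeq gene table as all protein-coding genes whose symbol is Psma, Psmb, Psmc, Psmd, Psme or Psmg followed by a number. They are 47 of 21887 protein-coding genes on the assembled mouse chromosomes. Their positions were compared with peaks from CUT&Tag, an assay in which a transposase tethered by an antibody inserts sequencing adapters near the antibody's target. CD4+ naive T cells were used, with spleen and pLN given as their source, and their genotype was either WT or DDX55 KO, the latter lacking the DEAD-box RNA helicase DDX55.

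The RNA polymerase II list, on which most values below rest, was named by 2 WT and 2 knockout samples together. The H3K9me3 and DDX55 lists were each named by 2 WT and 2 knockout samples. The R-loop list, from S9.6, an antibody that binds hybrids of DNA with RNA, was named by 2 samples of each genotype without treatment and 2 of each with RNase H, an enzyme that digests such hybrids. The other 3 of the 23 samples (2 with an HA tag antibody and 1 with IgG, all labelled WT) named no list. The sources used here give neither the way the knockout was made, nor the age of the mice, nor a statement that replicate samples were separate mice. The lists held 10924 RNA polymerase II, 16738 H3K9me3, 1499 R-loop and 243 DDX55 peaks, and each gives the start and end of its peaks and nothing else. The targeted gene, Ddx55 (chromosome 5, 124552832 to 124569660), had 1 gene-end RNA polymerase II peak and no DDX55 peak, which checks no label because each list joins both genotypes. A peak's position and its width in bp are therefore the measurements, no value belongs to 1 sample, the depth is unknown, and no difference between genotypes or spread between replicates could be measured.

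The proteasome is the barrel-shaped protease that degrades proteins tagged with ubiquitin. Its core particle is built of rings of alpha subunits (Psma genes) and beta subunits (Psmb genes), and only some of the beta subunits cut peptide bonds. A regulatory particle of ATPases (Psmc) and non-ATPase subunits (Psmd) binds ubiquitinated proteins, unfolds them and feeds them into the core. Lymphocytes also build an immunoproteasome, in which Psmb8, Psmb9 and Psmb10 take the places of Psmb5, Psmb6 and Psmb7, and which cuts peptides suited to presentation by MHC class I. Psme genes encode other activators that cap the core, and Psmg genes encode chaperones of core assembly.

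A peak in a merged list is a place where signal was called, and its lack is not a lack of polymerase. Of 11 CD4 T cell marker genes, 9 had a polymerase peak at an end of the gene (within 3000 bp), including Cd4 and the genes for CD3 chains. Tcf7, which naive T cells transcribe, was among those without one. A gene-end peak lay at 33.5% of all protein-coding genes. Of the markers of other cells, those with a peak were Prf1 (1 of 5 for cytotoxic cells), Cd79a (1 of 5 for B cells), Cd68 (1 of 4 for myeloid cells) and Klf1 and Epor (2 of 3 for erythroid cells), while Cd8a, Cd79b and Lyz2 had none.

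RNA polymerase II peaks lay at a gene end (within 3000 bp) of 34 of the 47 proteasome genes (72.3%). The same held for 33.5% of all protein-coding genes (7333 of 21887). The genes were chosen with earlier results of these data known, so no test of the list was made. By class, a peak lay at 6 of 7 core alpha genes, 5 of 6 ATPase genes, 9 of 11 non-ATPase genes, 4 of 4 activator genes and 3 of 4 genes for core assembly chaperones. Within the beta genes it lay at 4 of 4 constitutive genes without catalytic activity (Psmb1 to Psmb4), at 0 of 3 constitutive catalytic genes (Psmb5, Psmb6 and Psmb7) and at 1 of 3 immunoproteasome genes (Psmb9). The split of the beta genes by catalytic activity was made after their values were seen. It is a description of 7 catalytic genes, of which Psmb9 alone had a peak, beside 33 of the 40 other members.

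**Figure D1:**
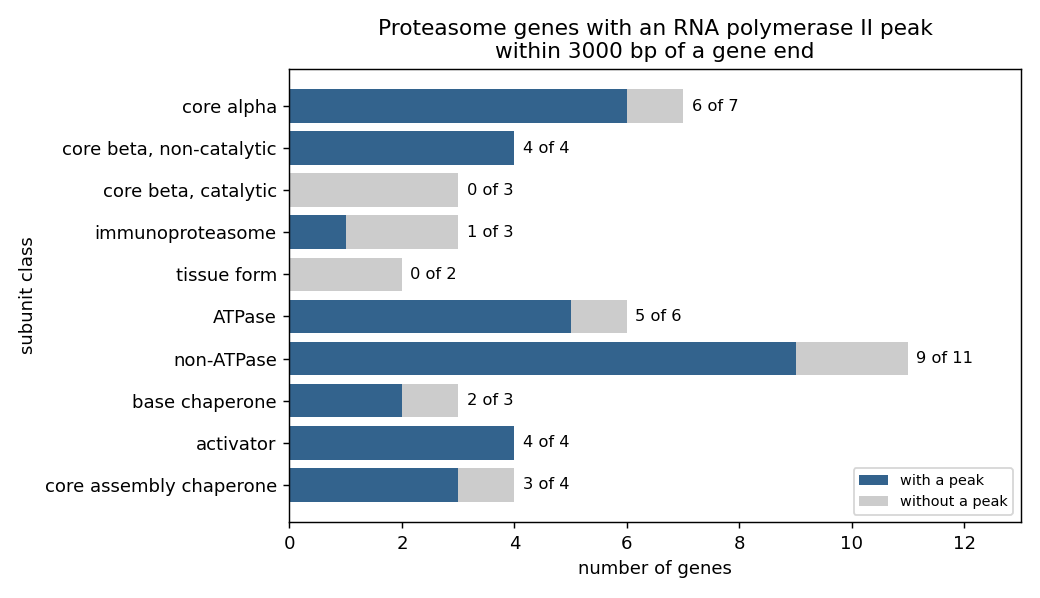
Number of proteasome genes with (blue) and without (grey) a gene-end RNA polymerase II peak (window of 3000 bp), by subunit class, with the count printed beside each bar. The catalytic core beta class stands at 0 of 3 and the activators at 4 of 4.

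Gene starts and strands came from RefSeq promoter sequences of GRCm38.p6, each running from 250 bases before to 50 after the start. They matched 39 of the 47 genes, with 42 starts. Psma8, Psmb1, Psmb2, Psmb7, Psmc3, Psmd3, Psmd7 and Psmg2 had no entry. Sequences before the start are given for 5 catalytic genes of the constitutive proteasome and the immunoproteasome, of which Psmb9 alone had a peak, for both starts of Psma6, of which only one had a peak, and for Psmg1 as a start with an ETS match. They run 5′ to 3′ on the coding strand and end at the base before the start. Capitals mark matches to the 9 motifs searched.
Psmb9 (chr17:34187331-34187580, minus strand): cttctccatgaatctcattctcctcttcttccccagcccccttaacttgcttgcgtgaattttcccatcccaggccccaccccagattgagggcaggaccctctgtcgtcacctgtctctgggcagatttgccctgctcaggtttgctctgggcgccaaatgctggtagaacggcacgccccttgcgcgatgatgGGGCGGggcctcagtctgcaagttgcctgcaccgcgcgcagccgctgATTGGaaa
Psmb8 (chr17:34197945-34198194, plus strand): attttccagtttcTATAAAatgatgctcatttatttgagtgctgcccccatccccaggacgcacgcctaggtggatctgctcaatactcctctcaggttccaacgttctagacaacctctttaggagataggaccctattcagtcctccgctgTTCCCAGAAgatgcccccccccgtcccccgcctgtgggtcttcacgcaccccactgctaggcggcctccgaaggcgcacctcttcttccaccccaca
Psmb10 (chr8:105938393-105938642, minus strand): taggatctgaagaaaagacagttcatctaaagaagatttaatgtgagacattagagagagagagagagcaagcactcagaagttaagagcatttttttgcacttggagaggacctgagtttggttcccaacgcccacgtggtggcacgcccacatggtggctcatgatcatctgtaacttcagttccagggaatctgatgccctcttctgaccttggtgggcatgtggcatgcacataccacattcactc
Psmb5 (chr14:54617996-54618245, minus strand): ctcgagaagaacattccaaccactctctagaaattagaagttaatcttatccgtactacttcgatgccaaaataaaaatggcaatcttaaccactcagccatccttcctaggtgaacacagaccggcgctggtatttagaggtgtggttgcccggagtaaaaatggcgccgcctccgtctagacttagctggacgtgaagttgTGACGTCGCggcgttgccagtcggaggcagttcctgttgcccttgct
Psmb6 (chr11:70525107-70525356, plus strand): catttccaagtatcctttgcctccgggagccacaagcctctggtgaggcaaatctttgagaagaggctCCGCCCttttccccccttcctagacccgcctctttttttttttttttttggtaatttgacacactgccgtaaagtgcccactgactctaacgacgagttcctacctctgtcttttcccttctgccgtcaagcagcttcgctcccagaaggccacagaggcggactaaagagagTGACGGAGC
Psma6, first start (chr12:55383972-55384221, plus strand): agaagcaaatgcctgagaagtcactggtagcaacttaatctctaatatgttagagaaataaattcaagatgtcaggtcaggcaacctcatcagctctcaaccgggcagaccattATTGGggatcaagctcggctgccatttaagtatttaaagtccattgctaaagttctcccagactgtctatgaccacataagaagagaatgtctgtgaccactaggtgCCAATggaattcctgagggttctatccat
Psma6, second start (chr12:55398575-55398824, plus strand): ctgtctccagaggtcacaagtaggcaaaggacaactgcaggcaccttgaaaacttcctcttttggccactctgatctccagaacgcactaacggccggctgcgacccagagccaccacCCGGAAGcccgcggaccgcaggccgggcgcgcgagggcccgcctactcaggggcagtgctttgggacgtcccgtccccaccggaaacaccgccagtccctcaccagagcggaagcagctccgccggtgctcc
Psmg1 (chr16:95990961-95991210, minus strand): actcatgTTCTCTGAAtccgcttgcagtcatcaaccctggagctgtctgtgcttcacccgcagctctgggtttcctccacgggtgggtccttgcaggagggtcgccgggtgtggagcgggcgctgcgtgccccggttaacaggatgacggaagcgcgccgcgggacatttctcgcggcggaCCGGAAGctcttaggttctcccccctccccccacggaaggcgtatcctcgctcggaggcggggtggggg

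The immunoproteasome genes differed in their peaks. Psmb9 (NCBI gene ID 16912, chromosome 17, 34182030 to 34187330), which encodes a catalytic subunit induced by interferon, had the widest peak of all members, 1502 bp at 34186722 to 34188223. This peak ran from -893 to 608 bp relative to the Psmb9 start, where negative positions lie before the start. It also covered the start of Tap1, 226 bp away on the other strand, whose product carries peptides into the endoplasmic reticulum for loading on MHC class I, and so it cannot be given to either gene. Psmb8 (gene ID 16913, chromosome 17, 34198195 to 34201454) lies just beyond Tap1 and had no peak within 3000 bp. The nearest one, 589 bp wide at 34194364 to 34194952, ended 3243 bp before the Psmb8 start and lay inside Tap1. Psmb10 (gene ID 19171, chromosome 8, 105935728 to 105938392) had no peak, and the nearest to its start was 37049 bp away.

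**Figure D2:**
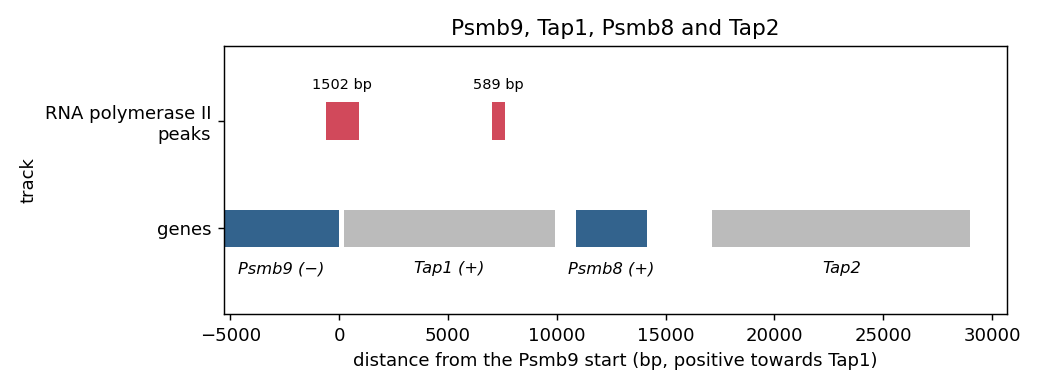
Psmb9, Tap1, Psmb8 and Tap2 (lower row, proteasome genes in blue, strand in brackets where the promoter table gives it) and RNA polymerase II peaks with their widths (upper row), against distance in bp from the Psmb9 start. The 1502 bp peak spans the shared start region of Psmb9 and Tap1, the 589 bp peak lies inside Tap1, and no peak lies over Psmb8 or Tap2.

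The constitutive catalytic genes lay away from any peak. Psmb5 (gene ID 19173, chromosome 14, 54614120 to 54617995), the chymotrypsin-like subunit, had its nearest RNA polymerase II peak 11599 bp from its start. For Psmb6 (gene ID 19175, chromosome 11, 70525324 to 70527858), the caspase-like subunit, that distance was 72960 bp. For Psmb7 (gene ID 19177, chromosome 2, 38588046 to 38643952), the trypsin-like subunit, the nearest peak was 282155 bp from a gene end. All 3 were thus without a peak at any window used here.

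The genes of forms made in other tissues had no peak either. Psma8 (gene ID 73677, chromosome 18, 14706135 to 14762301) encodes an alpha subunit of the testis, and its nearest peak was 20331 bp from a gene end. Psmb11 (gene ID 73902, chromosome 14, 54625310 to 54629556) encodes a catalytic subunit of the thymic cortex. Its start was 15932 bp from the nearest peak.

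Of the core alpha genes, which form the outer rings and the gate of the core, Psma1 (chromosome 7, 114264550 to 114276116) had the widest peak, 1177 bp from position -545 to position 631 relative to its start. Psma5 (chromosome 3, 108256926 to 108279952) had the narrowest, 486 bp. Psma2, Psma4 and Psma7 lay close together at 872, 928 and 921 bp. Psma6 (gene ID 26443, chromosome 12, 55384222 to 55418459) was the member counted as without a gene-end peak, yet it had one at its second start. That peak, 799 bp at 55398543 to 55399341, covered the start at 55398825, and none lay at the first start, 55384222. Psma3 had a peak by each rule, but not the same one: its gene-end peak of 609 bp lay between -6060 and -5452 bp from the start given in the promoter table, and a further peak of 809 bp covered that start. By starts rather than gene ends, 7 of 7 core alpha genes had a peak, against 30.9% of all protein-coding genes with a known start.

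The non-catalytic beta genes spanned a wide range of widths. Psmb3 (chromosome 11, 97703434 to 97713500) had 1214 bp, Psmb2 934 bp and Psmb1 774 bp, and Psmb4 (chromosome 3, 94884324 to 94886958) had 375 bp. The Psmb4 peak began 7 bp after the start and lay wholly inside the gene. Psmb1 had another peak of 564 bp, and both of its peaks were also within 3000 bp of an end of Tbp, which encodes the TATA-binding protein.

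ATPase genes, whose products form the ring that unfolds substrates, had the lowest median width of the classes with 3 or more peaks, 511 bp over 5 genes. Psmc1 (chromosome 12, 100110202 to 100123364) had 344 bp, the narrowest among all members, and Psmc6 (chromosome 14, 45329823 to 45349074) had 823 bp. Psmc2 (chromosome 5, 21785275 to 21803787) had a separate small peak for each of its 2 starts, 350 bp lying before the first and 289 bp over the second. Psmc3 had 511 bp and Psmc5 780 bp. Psmc4 (gene ID 23996, chromosome 7, 28041702 to 28050092) was the ATPase gene without a peak, and the nearest was 119199 bp from its start.

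Non-ATPase genes hold the ubiquitin receptors and the lid with its deubiquitinase. Psmd1 (chromosome 1, 86064619 to 86139295), a scaffold of the base, had the widest peak of this class, 1118 bp, and the lid gene Psmd7 (chromosome 8, 107580380 to 107588482) the narrowest, 470 bp. Psmd14 (chromosome 2, 61711694 to 61800376), which encodes the deubiquitinase, counted only through a 590 bp peak past its far end. That peak lay 90728 bp from the Psmd14 start and within 3000 bp of Tbr1, a transcription factor gene. Psmd2 (gene ID 21762, chromosome 16, 20651122 to 20663414) and Psmd8 (gene ID 57296, chromosome 7, 29174187 to 29180673) had no peak, with the nearest at 39840 and 24691 bp from their starts. Psmd11 had a peak of 804 bp at its start and another of 620 bp past its far end, within 3000 bp of Cdk5r1.

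Chaperones of base assembly are also named Psmd. Psmd5 (chromosome 2, 34852087 to 34870965) had 855 bp and Psmd10 (chromosome X, 140948425 to 140956711), known as gankyrin, had 588 bp. Psmd9 (gene ID 67151, chromosome 5, 123228190 to 123250126) had no peak within 56131 bp of its start. Among the chaperones of core assembly, Psmg1 (chromosome 16, 95979933 to 95990960) had 1109 bp, Psmg2 902 bp and Psmg4 (chromosome 13, 34162964 to 34178172) 459 bp. Psmg3 (gene ID 66506, chromosome 5, 139823613 to 139826894) had none, and its nearest peak was 22582 bp away.

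All 4 activator genes had a peak. Psme1 and Psme2, which encode the partners of the interferon-inducible activator, are neighbours on chromosome 14. Psme2 (gene ID 19188, 55587440 to 55591101) had 1434 bp at 55590774 to 55592207, the second widest among the members, and Psme1 (gene ID 19186, 55578494 to 55581527) had 539 bp. Another peak of 384 bp lay between the pair, within 3000 bp of ends of Psme2 and Emc9. Psme3 (gene ID 19192, chromosome 11, 101316213 to 101323537), which encodes the nuclear activator, had 694 bp over its start. Psme4 (gene ID 103554, chromosome 11, 30771775 to 30881150), the large activator, had 504 bp that began 380 bp after its start.

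Over the 34 genes with a gene-end peak the median width of the widest peak was 725 bp, from 344 to 1502 bp. Over all 7333 protein-coding genes with one it was 777 bp, and their middle range ran from 536 to 1071 bp. Of the members, 15 lay above the median of all genes and 19 below it. Psma1, Psmb3, Psmb9, Psmd1, Psme2 and Psmg1 had peaks of 1000 bp or more (17.6% of 34, against 30.2% of all genes with a peak).

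**Figure D3:**
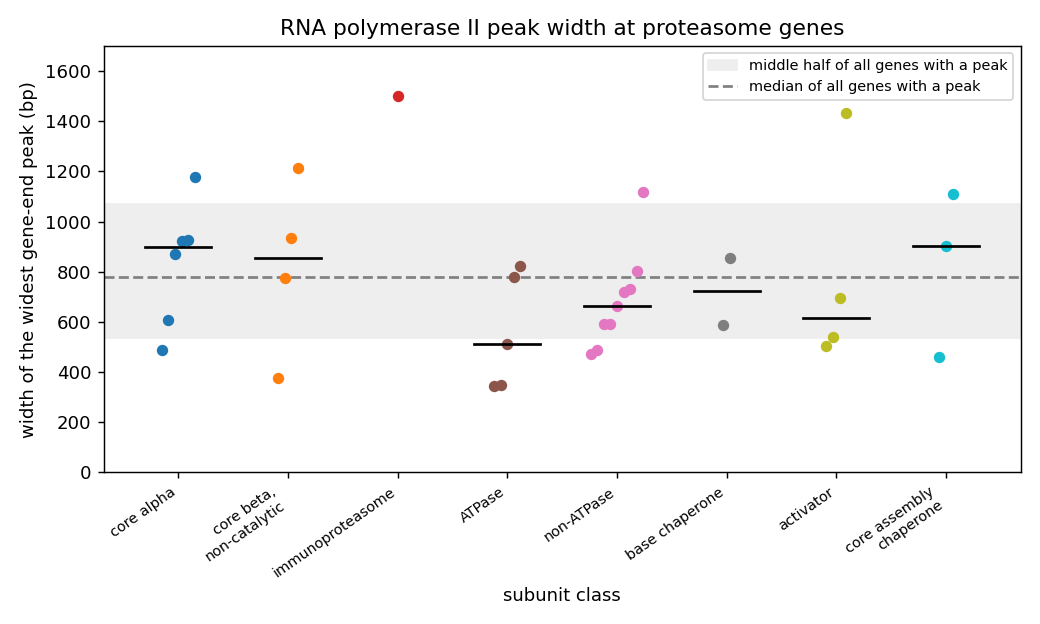
Width in bp of the widest gene-end RNA polymerase II peak of each of 34 proteasome genes (points) by class, with the class median (black bar, where there is more than 1 gene). The dashed line is the median of all genes with a peak, 777 bp, and the shaded band their middle range from 536 to 1071 bp, and Psmb9 at 1502 bp and Psme2 at 1434 bp stand highest.

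Measured from starts, a peak lay within 1000 bp at 28 of the 39 proteasome genes with a known start (71.8%), against 30.9% of 17492 protein-coding genes. Both rules found a peak at 27 genes and neither at 10, with Psmd14 found by gene ends only and Psma6 by starts only. The peak covered the start base at 22 of the 28 genes (78.6%, against 73.7% of all genes with a start peak). At Psmb4, Psmc1, Psmd6 and Psme4 the widest start peak lay wholly after the start, and at Psmc2 and Psmg4 wholly before it. Midpoints ran from -389.5 bp (Psme2) to 631.5 bp (Psme4) from the start with a median of 1.5 bp, 14 on each side, and the median over all genes was 51.5 bp. The median edges were at -398.5 and 442 bp, against -376 and 450 bp over all genes.

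**Figure D4:**
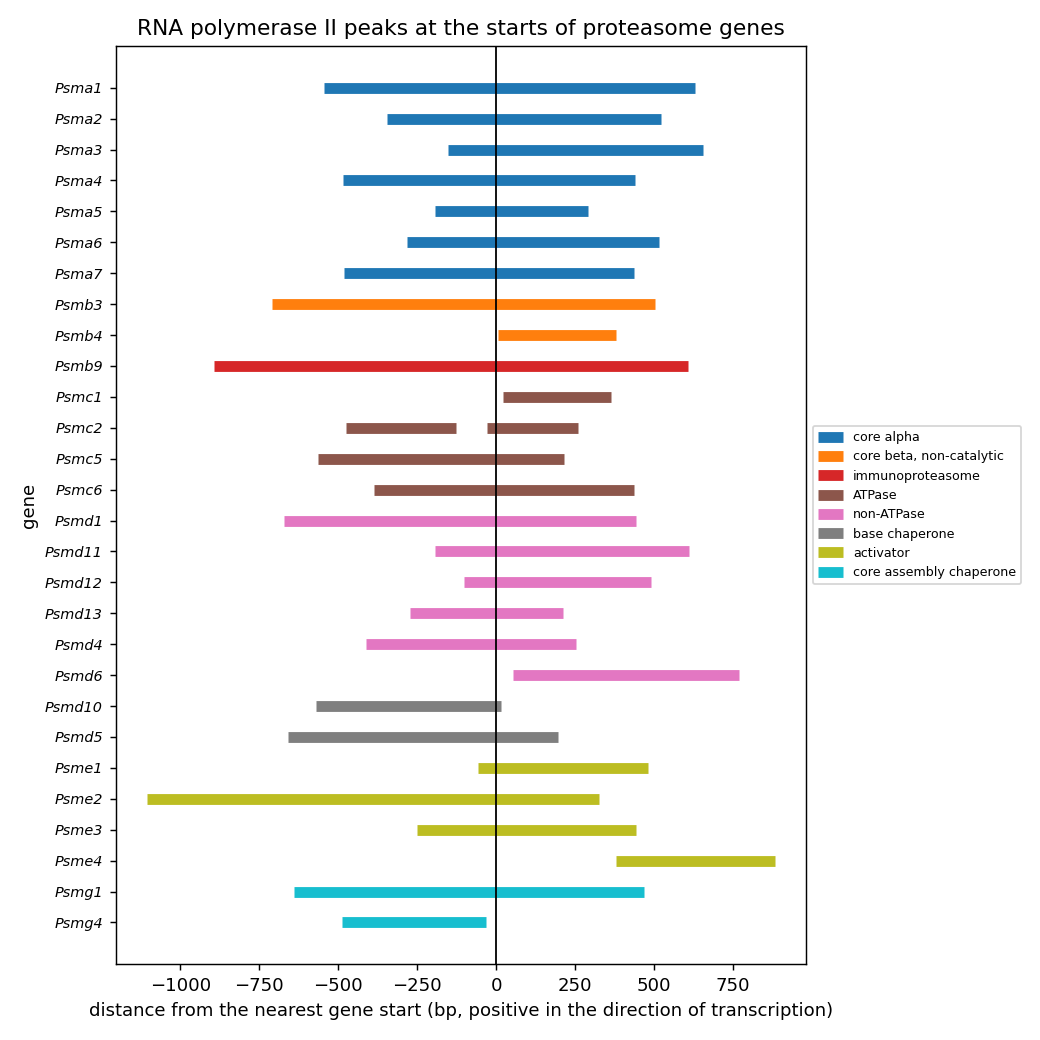
Bars are the RNA polymerase II peaks that lie within 1000 bp of a start in 28 proteasome genes, each drawn from its upstream to its downstream edge in bp from the nearest start (vertical line), coloured by class. Most bars cross the line, the Psme2 bar reaches -1106 bp, and the Psme4 bar begins 380 bp downstream.

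Some members share their start region with a gene on the other strand. A start of another protein-coding gene on the other strand lay within 1000 bp of 7 of the 39 genes (17.9%, against 9.61% of all genes with a start). Such a start is called divergent here in either orientation, so the shares over all genes also count pairs that overlap. In all 7 members the paired genes ran away from each other. Only genes with a known start could be counted as partners, so a neighbour without one was missed. The partners of Psma2, Psma7 and Psmc5 were Mrpl32 (a mitochondrial ribosomal protein, 205 bp away), Ss18l1 (a chromatin regulator, 19 bp) and Ftsj3 (a ribosomal RNA processing factor, 101 bp). Those of Psmd10 and Psmd13 were Atg4a (an autophagy protease, 196 bp) and Sirt3 (a mitochondrial deacetylase, 85 bp). Psmb9 had Tap1 (226 bp), and Psme2 had Rnf31, whose product is a ubiquitin ligase that builds linear chains (641 bp). All 7 had a start peak, with a median width of 872 bp, and of the 32 members with no such partner 21 had one, with a median of 719 bp. Across all genes a start peak lay at 72.2% of those with a divergent partner (median 878 bp) and at 26.5% of the rest (median 764 bp), so the same order was seen there. Counting any protein-coding neighbour with a gene end within 3000 bp, 17 of the 34 gene-end peaks (50%) were shared, against 44.9% of the 7333 genes with such a peak. Besides the partners and neighbours already named, Pcgf2 shared the peak of Psmb3, Pogz that of Psmb4, Dnajc2 both of Psmc2 and Hykk and AY074887 that of Psma4. Cutal shared the peak of Psmd5, Brwd1 that of Psmg1, Cep76 that of Psmg2 and Fitm1 and Emc9 that of Psme1.

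No peak of the other 3 lists lay at a proteasome gene. H3K9me3, a mark of heterochromatin, had 0 of 47 at gene ends (2.96% of all genes) and 0 of 47 over the gene with 3000 bp on each side (6.41%). R-loop peaks gave 0 of 47 by both rules (0.631% and 1.8% of all genes), and DDX55 peaks likewise (0.256% and 0.42%). For R-loops, DDX55 and H3K9me3 at gene ends, counts of 0 are near such small shares and are not read as particular to these genes. The H3K9me3 share over the whole gene, 6.41%, is the largest. Within 10000 bp of the gene, H3K9me3 lay at 0 of 47 (9.28% of all genes). These differences, and that within 50000 bp given below, were not tested. The closest H3K9me3 peak, 1092 bp wide, lay 13210 bp from Psmc4. Next came one 28823 bp from Psmd3 (629 bp, chromosome 11, 98653103 to 98653731), inside Gsdma2, which met an R-loop peak (602 bp, 98653128 to 98653729). The third lay 32750 bp from Psmd8, so 3 of 47 members had H3K9me3 within 50000 bp (19.2% of all genes), 1 had an R-loop peak (4.62%) and 0 a DDX55 peak (0.982%). The DDX55 peak closest to any member lay 724669 bp from Psmd1.

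CpG content of member promoters spanned overlapping ranges with and without a peak. The 30 member promoters with an RNA polymerase II peak within 1000 bp held a median of 19.5 CpG dinucleotides in 300 bp (10 to 41), and the 12 without held 13.5 (3 to 34). Over all protein-coding promoters the medians were 23 with a peak and 7 without. Members without a peak were of both kinds. Psmb10, Psmb11 and the first start of Psma6 held 3, 4 and 3, while Psmc4, which had no peak, held 34 and Psmb5 held 20. The second start of Psma6, which had the peak, held 22. Psma7, whose product is an alpha subunit, had the most, 41.

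**Figure D5:**
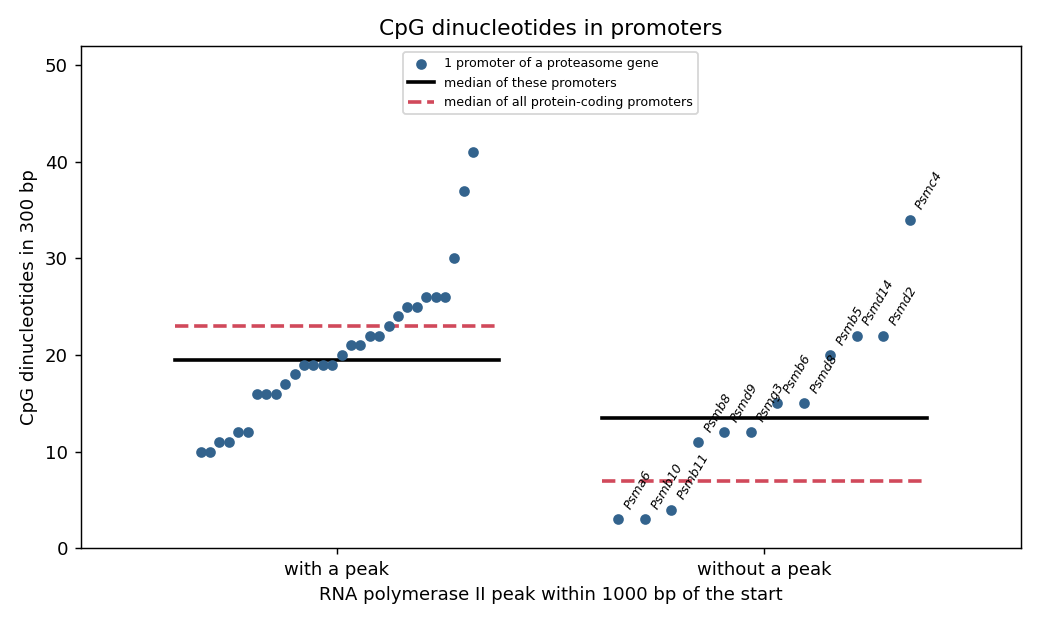
CpG dinucleotides in the 300 bp promoter window of 42 starts of proteasome genes (points), split by whether a polymerase peak lay within 1000 bp. Black bars are the medians of these promoters, 19.5 and 13.5, dashed red bars those of all protein-coding promoters, 23 and 7, and Psmc4 with 34 stands highest among those without a peak.

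Motifs were searched as exact letters on both strands of the 300 bp windows, where N is any base, and a match is not known to be a bound site. CCGGAAG, the core bound by ETS factors, lay in 15 of 42 member promoters (35.7%), against 11.6% of 21263 protein-coding promoters and 21.9% of those with a peak. Of these 15, 13 had a peak. Psmg1, shown above, and the second start of Psma6, with 3 matches of which 1 lies before the start, were among them. GCGC, any base, then TGCGC, for NRF1, lay in 7 (16.7%, against 6.38% of all and 13.5% of those with a peak), in Psma2, Psma3, Psma4, Psmc4, Psmc5, Psmd14 and Psmg1. GGGCGG, for SP1, lay in 24 (57.1%), above the 46.2% of all promoters and below the 69.2% of those with a peak. TATAAA was found in 4 (9.52%), below the 12.6% of all and above the 5.99% of those with a peak. For SP1 and TATAAA the direction of the difference thus turned with the reference. CCAAT, for NF-Y, lay in 14 (33.3%, against 38.2% of all and 40.9% of those with a peak) and AAGATGGCG, for YY1, in 2 (4.76%, against 1.83% and 3.92%).

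TGACNNNGC, the core of the antioxidant response element through which NFE2L1 and NFE2L2 act, lay in 6 member promoters (14.3%, against 13% of all and 15.5% of those with a peak), in Psmb5, Psmb6, Psmc6, Psmd9, Psmd12 and Psme4. In Psmb5 the match TGACGTCGC began 47 bases before the start, and in Psmb6 TGACGGAGC began 9 bases before it. TTCNNNGAA, the GAS element of STAT factors, lay in 3 (7.14%, against 7.69% of all and 6.51% of those with a peak), among them Psmb8 with TTCCCAGAA from 97 bases before the start. GAAA, any 2 bases, then GAAA, bound by IRF factors, lay in 5 (11.9%, against 3.35% of all and 3.11% of those with a peak), in Psmb3, Psmd4, Psmd9, Psme1 and Psmg4. Some of the motif shapes can overlap, since an SP1 match may lie within a longer GC-rich run, and the counts were not corrected for base composition.

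Of 38 genes that assemble, regulate, feed or stand beside the proteasome, 37 were matched in the table (Paaf1 was not), and 32 of these had a gene-end RNA polymerase II peak (86.5%, against 33.5% of all genes), with a median width of 908.5 bp. Among genes that encode ubiquitin, Ubb had 1701 bp and Rps27a 1050 bp. Nfe2l1, whose product raises proteasome gene transcription when proteasomes are inhibited, had 1096 bp and Nfe2l2 had 1932 bp. Ngly1, a deglycosylase needed to activate NFE2L1, had 680 bp, but Ddi2 (chromosome 4, 141683563 to 141723419), the protease that cleaves it, had none. The subunit genes Adrm1 (a ubiquitin receptor) and Sem1 (of the lid), which lie outside the symbol rule, had 853 and 543 bp. The assembly factor gene Pomp had 658 bp and the inhibitor gene Psmf1 476 bp. Besides Ddi2, no peak lay at Ecpas, a proteasome adaptor gene (chromosome 4, 58797234 to 58917748), or at Tap2, whose product pairs with TAP1 (chromosome 17, 34204479 to 34216321). None lay at Psme2b (chromosome 11, 48945345 to 48946410) or Psmc3ip (chromosome 11, 101092141 to 101095435), which resemble members in symbol. None of the 37 had a peak of the other 3 lists at a gene end or over the gene with 3000 bp on each side. Over all genes the gene-end shares were 2.96% for H3K9me3, 0.631% for R-loops and 0.256% for DDX55. Over the gene with 3000 bp on each side they were 6.41%, 1.8% and 0.42%. For R-loops, DDX55 and H3K9me3 at gene ends, counts of 0 are near such small shares. The difference from the H3K9me3 share over the whole gene was not tested.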

How the data were processed

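The assay was CUT&Tag in CD4+ naive T cells, and groups follow the labelled antibody target, genotype and treatment. For each of 4 targets the authors deposited a merged list of peaks, whose values are genomic coordinates in bp, another unit than counts or signal, with no score. Per the submitters' processing notes, build mm10 was used, with MACS3 (version 3.0.0b1), Bowtie2 (version 2.5.0), fastp (version 0.12.4), ChIPseeker (version 1.30.3) and SAMtools (version 1.15.1). Thresholds, the way of merging and any filter against controls are not given in the sources used here, and they decide which peaks exist and how wide they are. The depth per sample is unknown.

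Gene positions are those of RefSeq on GRCm38.p6, in the same coordinates as mm10, and starts came from RefSeq promoter sequences of that build. A gene had a peak when at least 1 bp of it lay within 3000 bp of either gene end, or within 1000 bp of a start. Its width was that of the widest such peak. Coordinates count from 1. Overlaps were computed in Python 3.11.15 (pandas 2.3.3, numpy 2.4.6). Those over the gene with 3000 bp on each side were checked with bedtools 2.31.1. The gene-end rule was tested on simulated data with overlaps planted around the gene end of lower coordinate. The rule for starts was checked in neither way. No test was run, because no list holds values per sample. Instead most counts stand beside the same count over all genes. The alternative counts of shared peaks do not.

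The members, classes and gene lists were chosen with earlier results of these data known. Named with positions are all members of the immunoproteasome, tissue-form and activator classes and, in other classes, those with the widest, the narrowest or no peak, and partner genes without a peak. Neighbours that share a peak are named, most without positions. Other genes named were chosen after their values were seen. Alternatives were other windows, only the wider 50% of peaks, midpoints, an overlap of 50% of the peak, and neighbours of any type. Some items are not reported here.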

Additional observations from a re-analysis of the deposited data

How the results depend on the processing

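The count of 34 proteasome genes with an RNA polymerase II peak stayed between 33 and 35 with windows of 1000 or 5000 bp, midpoints, 50% of the peak inside, whole genes, or without peaks that met H3K9me3. Psmd14 was lost at 1000 bp, Psmb8 gained at 5000 bp, and Psma6 gained over whole genes. With only the wider 50% of peaks it was 20 (21.6% of all genes), and the start count fell from 28 to 18 (20.3% of genes with a start), because fewer peaks were used. Psma5, Psmc1, Psmc2, Psmc3 and Psme4 were among the genes lost. With 1000 bp windows, 11 rather than 17 peaks were shared with a neighbour, and 19 were shared when the neighbour was any annotated gene. The share over all genes was not computed in either case. Partner genes with a peak numbered 30 to 32 of 37 with other windows or overlap rules (29.3% to 35.9% of all genes). With only the wider 50% of peaks they numbered 24 (21.6% of all genes). Counts for H3K9me3, R-loop and DDX55 were 0 under every alternative run, including whole genes, which was added after seeing the data. The median width ran from 665 to 725 bp, and stayed below that of all genes under each alternative. Before the start only, the IRF motif lay in 3 promoters rather than 5 and the YY1 motif in 0 rather than 2. No paired analysis was possible because the lists are merged over samples, and for the same reason no sample could be left out. Depth per sample is unknown, so weak peaks may be missing from a list.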

Other observations

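The members without an RNA polymerase II peak at a start, or at a gene end where no start was known, numbered 13. The stretch between the neighbouring peaks around each was 34845 to 1222033 bp long, with a median of 162775 bp. All 10877 such stretches had a median of 40533 bp, but a stretch that holds a given gene is longer than most by the way it is picked, so the values are only descriptive. Psmb5 and Psmb11 lay in the same stretch, which is counted for both.

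A gene inside a stretch may still have a peak within 3000 bp of its end, beyond the stretch's edge, as Psmd14 did. Psmb8 lay in a stretch of 391806 bp on chromosome 17 with 11 other protein-coding genes, among them Tap2 and the MHC class II genes H2-Ab1, H2-Aa and H2-Eb1, which antigen-presenting cells transcribe. Psmb6 shared 162775 bp with 8 others, such as Cxcl16, Pld2 and Mink1, and Psmb10 shared 157343 bp with 7, such as Lcat and Slc12a4. Psmb5 and Psmb11, the genes for a constitutive and a thymic catalytic subunit, lay together in 34845 bp with no other protein-coding gene wholly inside. Psmd14 and Psma8 were each alone in stretches of 208485 and 99293 bp.

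Gene length moved with the presence of a peak, and its part in the counts was not tested. The 34 members with a gene-end peak had a median length of 12513.5 bp and the 13 without had 6487 bp, while over all genes the medians were 21352 and 14972.5 bp.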
